A study of Rattus norvegicus with 20 samples.

Results

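The 40 cell cycle and DNA replication genes described here were taken as a list of textbook proliferation genes, 13 acting in S phase, 4 in G1 entry and 23 in mitosis, and each was found on the array by the gene name that the scanner files give its probes. Of the 40, 39 were on the array under that name and all 39 had a probe well above background on at least 4 arrays, out of 13596 genes tested in all. Mki67 was not found under its name and is not analysed here. Of the 39, 35 were well above background on all 20 arrays. The exceptions were Mcm6 (14 arrays), Ccne2 (4 arrays), Aurkb and Kif2c (19 arrays each).

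A dividing cell copies its DNA in S phase and separates the copies in mitosis. In late G1, cyclin D and cyclin E with their kinases release E2F factors from the retinoblastoma proteins, and E2F factors then drive genes of the replication helicase, the sliding clamp and nucleotide synthesis. Genes of mitosis are switched on later, by FOXM1 and by a complex of B-MYB and MuvB that binds the cell cycle homology region. In squamous epithelium of the oesophagus, division is largely confined to basal and adjacent suprabasal cells, and a damaged or inflamed lining is known for an expanded basal layer, while infiltrating and resident non-epithelial cells can divide as well.

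RNA came from whole oesophageal tissue of Wistar rats, 4 arrays in each of 5 groups. The groups were sham surgery, surgically induced reflux oesophagitis without a drug (called untreated), and oesophagitis with 0.5 ml/kg STW5 (low dose), 2 ml/kg STW5 (high dose) or 30 mg/kg omeprazole. STW5 is a liquid mixture of herbal extracts, omeprazole inhibits the gastric proton pump, and dosing ran from 7 days before the operation until 10 days after it. Age, sex and any vehicle are not given in the sources used here, and the labels name no drug for the sham rats. Levels are log2 signals minus the array's own 75th percentile, so a negative level is a signal below that percentile. Levels of different genes come from different probes and are not compared.

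The assignment of the STW5 arrays to doses is not settled. Scanner files and sample titles were followed here. In the deposited value table, each of the 8 STW5 columns instead matches a scanner file labelled with the opposite dose, and the series text numbers the STW5 groups the other way round from the titles. Under that assignment each value given for the low dose belongs to the high dose and the reverse. Low-dose replicates 1 and 2 differed 1.10 times as much as spots of the same probe on a single array do, against at least 2.17 for any other pair, and were counted as 1 sample, which left n = 3 for that group and 19 samples. Sham replicate 2 lay nearer to omeprazole replicate 2 (2.17 times) than to any sham array (at least 4.72 times), and it was the highest sham array in 36 of the 39 genes. Counts of genes past the test are therefore given with and without these arrays where they differ by more than 1.5 times. So are the median changes of untreated against sham and of low dose against untreated. By the barcodes in the scanner files, slide 1 carried the sham group, slide 2 the untreated and low-dose groups and slide 3 the remaining groups, so only low dose against untreated and high dose against omeprazole compare arrays of 1 slide. In the other comparisons slide and group cannot be told apart. An array's 75th percentile was 563 to 1078 intensity units, lowest in the low-dose arrays (563 to 636) and highest in the high-dose arrays (779 to 1078), and 61.5% to 70.5% of features were well above background. The part of signal strength in the results was not tested beyond the other scalings given below. The labels do not say how replicates were obtained beyond 4 animals per group, so p-values measure the spread between these arrays, whose number limits the precision.

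The tissue label was checked against cell type markers. Krt5 and Krt14 of basal keratinocytes, Krt4 and Krt13 of suprabasal squamous cells and Ckm of striated muscle were well above background on 20 arrays. Krt10 of the suprabasal list was well above background on 3 arrays only, and Dsg1 was not found on the array. Stomach markers Pgc and Tff1 were also well above background on 20 arrays and Gkn1 on 15, and the level of the 4 stomach markers measured ranged from -1.59 to 3.20 within the sham group alone. In these bulk samples, fewer cells of a type and less RNA per cell cannot be told apart.

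S phase and mitosis genes did not keep the same order of groups. The level of a list is the mean over its genes of each gene's level minus the mean of that gene's 5 group means. For the 13 S phase genes the group means were -0.29 ± 0.47 in sham (SD, n = 4), 0.44 ± 0.40 in untreated, -0.35 ± 0.48 at the low dose (n = 3), -0.03 ± 0.24 at the high dose and 0.23 ± 0.29 with omeprazole. With all sham arrays, untreated tissue was thus highest and the low dose lowest. Without sham replicate 2 (0.41) the sham arrays stood at -0.41, -0.53 and -0.62, each below the low-dose mean, so sham was then lowest. For the 22 mitosis genes the means were -0.02 ± 0.33 in sham, 0.23 ± 0.31 in untreated, -0.46 ± 0.62 at the low dose, -0.10 ± 0.31 at the high dose and 0.36 ± 0.34 with omeprazole. Here omeprazole arrays stood highest, though each of these neighbouring groups overlapped. By single genes, the untreated mean was the highest of the 5 groups in 9 of 13 S phase genes and in 4 of 4 G1 genes. Among these G1 genes Ccne2 passed the filter on dim probes only through 3 untreated arrays and 1 high-dose array, so its rank supports nothing. The untreated mean was highest in 10 of 22 mitosis genes, and omeprazole was highest in the other 12. The low-dose mean was the lowest in 8 of 13 S phase and 18 of 22 mitosis genes.

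Within groups the arrays differed together. In sham arrays 1 to 4 the S phase level was -0.41, 0.41, -0.53 and -0.62, and the mitosis level -0.39, 0.42, -0.04 and -0.09. In untreated arrays the S phase level was 0.17, 0.43, 0.15 and 1.00, and the mitosis level -0.11, 0.20, 0.18 and 0.64. Replicate 4 was the highest untreated array in 32 of the 39 genes. In low-dose arrays the S phase level was 0.22, 0.18, -0.56 and -0.69, and the mitosis level -0.01, 0.14, -1.15 and -0.31. Here the near-identical pair was the highest in 34 genes, and replicate 3 the lowest in 29. High-dose arrays stood at -0.36, 0.15, -0.05 and 0.14 for S phase and at -0.54, 0.08, -0.09 and 0.14 for mitosis. Omeprazole arrays stood at -0.14, 0.44, 0.48 and 0.13 for S phase and at -0.12, 0.39, 0.51 and 0.65 for mitosis, replicate 1 being the lowest in 32 genes. The median SD of a gene within a group ran from 0.31 at the high dose to 0.62 at the low dose, so the low-dose arrays were the most uneven.

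**Figure D1:**
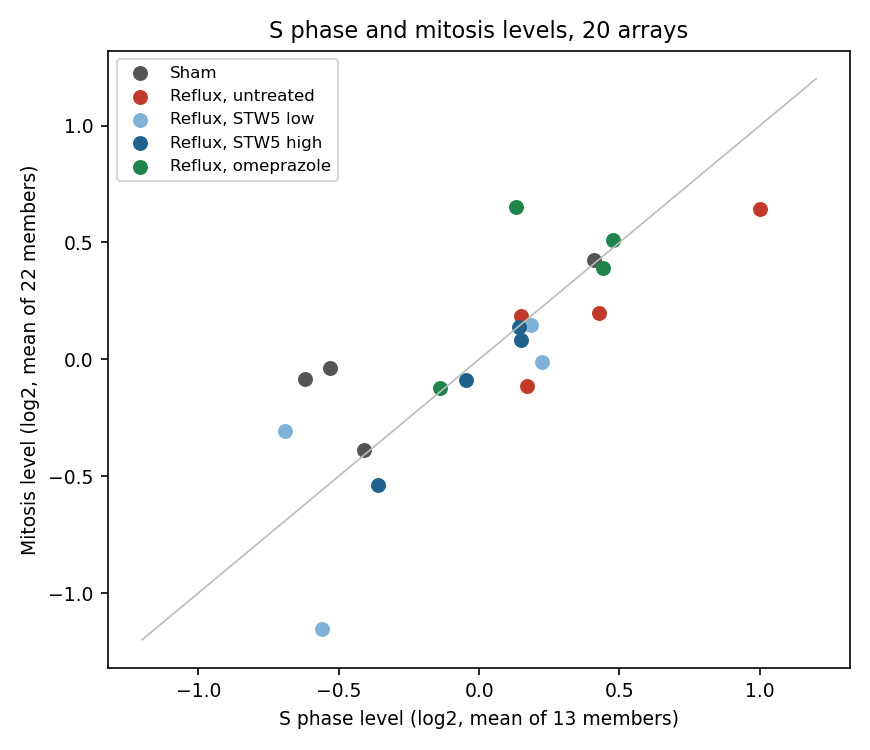
Mitosis level (22 genes) against S phase level (13 genes) of the 20 arrays, both log2, coloured by group, with the line of equal levels in grey. Omeprazole replicate 4 lies farthest above the line among omeprazole arrays (0.13 and 0.65), sham replicates 3 and 4 lie above it too, and 3 of the 4 untreated arrays lie below it.

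The difference between both lists, S phase level minus mitosis level, had means of -0.27 in sham, 0.21 in untreated and -0.13 with omeprazole. At the low and high doses the means were 0.11 and 0.07. The omeprazole mean was negative as in sham, but it rested on replicate 4 (-0.52), the other omeprazole arrays standing between -0.03 and 0.05. Untreated and omeprazole arrays overlapped with sham arrays. By array the difference was -0.02, -0.01, -0.50 and -0.53 in sham arrays and 0.28, 0.23, -0.03 and 0.36 in untreated arrays. Low-dose arrays had 0.24, 0.04, 0.59 and -0.39, high-dose arrays 0.18, 0.07, 0.04 and 0.00155, and omeprazole arrays -0.02, 0.05, -0.03 and -0.52. No test is given, since the genes of both lists were chosen by role with results of these data known.

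Because S phase and mitosis genes are switched on by different factors, the 250 bases before the transcript start that RefSeq's promoter table uses for each gene (GRCr8) were searched on both strands for 3 motifs. These were the E2F site (TTTCCCGC, TTTCGCGC, TTTGCCGC or TTTGGCGC), the cell cycle homology region (TTTGAA or TTCGAA) and the CCAAT box (CCAAT), where matches may overlap and TTCGAA reads the same on both strands. Windows were found for 29 of the 40 genes, but that start can lie inside the gene. In 11 windows it was the gene's outermost annotated 5′ end, in 13 it lay fewer than 250 bases inside, and in Aurka, Birc5, Kif11, Cdc45 and Mki67 the whole window was inside the gene. Those 5 were left out, as were all other windows placed that way, which left 24 genes. An E2F site was in 5 of 9 S phase windows (Mcm2, Mcm5, Mcm6, Mcm7 and Tyms), in 1 of 14 mitosis windows (Cdk1) and in 1.64% of all 23074 windows. The cell cycle homology region was in 3 of 9 S phase and 6 of 14 mitosis windows, against 17.7% of all. The CCAAT box was in 6 of 9 and 10 of 14, against 35.0%. The 4 windows printed here are those of 2 S phase and 2 mitosis genes that hold an E2F site or the cell cycle homology region. Among the other genes followed below, Mcm2 and Mcm6 held an E2F site, and Mcm2, Rrm1 and Cdc20 the cell cycle homology region. The windows of Pcna and Mad2l1 held neither. Windows are written 5′ to 3′ on the gene's strand, with matches to any of the 3 motifs in capitals.
Mcm5 (chr19:13488563-13488812, plus strand): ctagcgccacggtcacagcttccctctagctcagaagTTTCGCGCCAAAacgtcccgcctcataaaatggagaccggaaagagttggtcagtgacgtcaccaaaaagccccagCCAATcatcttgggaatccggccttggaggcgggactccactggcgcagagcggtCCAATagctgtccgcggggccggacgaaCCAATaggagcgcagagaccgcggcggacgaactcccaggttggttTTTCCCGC
Tyms (chr9:120776084-120776333, minus strand): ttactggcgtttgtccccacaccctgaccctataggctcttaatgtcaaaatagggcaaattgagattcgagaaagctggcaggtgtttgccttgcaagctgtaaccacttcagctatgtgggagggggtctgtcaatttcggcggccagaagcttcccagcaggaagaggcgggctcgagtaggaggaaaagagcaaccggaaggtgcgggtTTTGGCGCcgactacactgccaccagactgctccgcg
Cdk1 (chr20:19265043-19265292, plus strand): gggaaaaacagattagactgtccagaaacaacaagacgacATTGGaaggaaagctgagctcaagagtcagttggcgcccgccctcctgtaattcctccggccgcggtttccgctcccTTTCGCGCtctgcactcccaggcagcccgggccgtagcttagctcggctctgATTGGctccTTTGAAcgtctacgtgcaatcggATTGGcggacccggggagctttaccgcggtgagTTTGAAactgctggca
Top2a (chr10:84473094-84473343, minus strand): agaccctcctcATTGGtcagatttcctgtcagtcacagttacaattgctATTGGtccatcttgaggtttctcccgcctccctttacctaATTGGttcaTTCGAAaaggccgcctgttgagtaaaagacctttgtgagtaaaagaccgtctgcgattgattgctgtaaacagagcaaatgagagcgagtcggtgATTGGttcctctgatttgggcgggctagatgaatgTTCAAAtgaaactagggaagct
In the Mcm5 window an E2F match ends at the start site and a pair of overlapping E2F matches, 1 on each strand, lies 202 to 213 bases before it. In Tyms the single E2F match lies 30 to 37 bases before the start. Cdk1 holds an E2F match 126 to 133 bases before the start and the cell cycle homology region 11 to 16 and 67 to 72 bases before it. Top2a has this region 17 to 22 bases before the start, on the opposite strand, and again, as the palindrome, 147 to 152 bases before it. The start used lies 41 bases inside the annotated gene in Cdk1 and 66 in Tyms, and at the gene's annotated 5′ end in Mcm5 and Top2a. A match describes letters and shows no binding.

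Untreated oesophagitis against sham surgery asks which of these genes differ in the reflux model. Of the 39 genes, 10 were higher in untreated tissue and 0 lower, by limma's moderated test at a Benjamini-Hochberg adjusted p under 0.05. Over all 13596 genes, 15.0% were higher and 17.9% lower. By role, 6 of 13 S phase genes, 2 of 4 G1 genes and 2 of 22 mitosis genes rose. The median log2 change was 0.70 for S phase and 0.28 for mitosis genes, against -0.08 for all genes. Leaving out 1 sample gave 0.53 to 0.94 for S phase, and for mitosis 0.11 without sham replicate 1 or untreated replicate 4 and 0.47 without sham replicate 2.

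Among the S phase genes, subunits of the MCM helicase, which unwinds DNA at the fork, differed in their calls. Mcm3, Mcm5 and Mcm6 rose, by 1.13 ± 0.40, 1.13 ± 0.38 and 1.65 ± 0.54 (log2 change ± SE, n = 4 and 4, adjusted p = 0.0369, 0.0318 and 0.0259). Mcm2, Mcm4 and Mcm7 stood at 0.66, 0.52 and 0.27 and did not pass. Mcm5 read -3.26, -2.22, -3.55 and -3.96 in sham arrays 1 to 4 and -2.21, -2.03, -2.27 and -1.94 in untreated arrays. Sham replicate 2 reached the untreated range in Mcm5, and the other 3 sham arrays lay below it. Mcm6 read -5.52, -4.12, -6.33 and -6.42 in sham arrays 1 to 4 and -3.55, -3.72, -4.93 and -3.57 in untreated arrays. Only 1 of 4 sham arrays was well above background in Mcm6, so its sham level is uncertain. Mcm2 read -1.49, -0.34, -1.24 and -1.58 in sham arrays 1 to 4 and -0.59, -0.32, -0.91 and -0.17 in untreated arrays. Here sham replicate 2 lay within the untreated arrays and the change of 0.66 ± 0.29 did not pass (adjusted p = 0.0874). Cdc6, which loads the helicase onto origins, stood at 0.70 (adjusted p = 0.113), and Cdc45, which activates it, at 0.03 (adjusted p = 0.939).

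Rrm2 read 1.14, 2.45, 1.42 and 1.68 in sham arrays 1 to 4 and 2.36, 2.78, 2.51 and 3.95 in untreated arrays. Rrm2 encodes the small subunit of ribonucleotide reductase, which makes deoxyribonucleotides, and its untreated arrays lay above 3 of the 4 sham arrays. The change was 1.23 ± 0.37 (adjusted p = 0.0171), a 2.34-fold higher mean. Rrm1 read -3.96, -3.77, -4.10 and -4.44 in sham arrays 1 to 4 and -4.05, -4.12, -4.22 and -3.28 in untreated arrays. Rrm1, the large subunit of the same enzyme, overlapped between the groups, at 0.15 ± 0.22 (adjusted p = 0.641). Pcna read 0.09, 1.16, 0.48 and 0.37 in sham arrays 1 to 4 and 0.99, 1.13, 1.60 and 1.69 in untreated arrays. Pcna is the sliding clamp of the replicative polymerases and rose by 0.82 ± 0.27 (adjusted p = 0.0261), with sham replicate 2 among the untreated arrays. Tyms read -4.57, -3.58, -4.47 and -4.26 in sham arrays 1 to 4 and -3.76, -3.71, -3.56 and -2.84 in untreated arrays. Tyms, thymidylate synthase, rose by 0.75 ± 0.24 (adjusted p = 0.0229), again with sham replicate 2 inside the untreated range. Tk1, the thymidine salvage kinase, stood at 0.37 (adjusted p = 0.290).

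Of the G1 genes, Ccne1 had the smallest p of all 39. Ccne1 read -2.25, -0.70, -2.43 and -2.03 in sham arrays 1 to 4 and -0.83, -0.32, -0.72 and -0.05 in untreated arrays. Ccne1 encodes cyclin E1, the partner of CDK2 at S phase entry, and its change was 1.37 ± 0.37 (adjusted p = 0.00964), with sham replicate 2 alone above the lowest untreated array. Ccne2 read -6.01, -6.48, -7.07 and -7.23 in sham arrays 1 to 4 and -5.72, -5.88, -6.35 and -5.16 in untreated arrays. Ccne2, cyclin E2, was well above background on 0 of 4 sham and 3 of 4 untreated arrays, so its rise is a bound: at least 1.75-fold higher. This was computed against the lowest signal well above background or the spot's own signal on each sham array, whichever was higher. Limma's adjusted p was 0.0262 for the signals as read and 0.0274 with signals raised to the background level. Ccne2 passed the filter on dim probes through 3 untreated and 1 high-dose array, so its calls against untreated tissue support nothing, and without it 9 genes rose. Ccnd1 read -0.70, -0.04, -0.14 and -0.02 in sham arrays 1 to 4 and 0.24, 0.35, -0.10 and 0.03 in untreated arrays. Ccnd1, cyclin D1, overlapped between the groups and stood at 0.35 ± 0.19 (adjusted p = 0.168). E2f1 stood at 0.42 by the brighter of its 2 probes and at 1.51 by the dimmer, and the brighter did not pass (adjusted p = 0.147).

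Of the mitosis genes Aurka and Mad2l1 rose, and the other 20 did not pass. Aurka read -2.0, -0.82, -1.40 and -1.47 in sham arrays 1 to 4 and -0.81, -0.60, 0.08 and -0.03 in untreated arrays. Aurka encodes the centrosomal kinase Aurora A and was the only gene of the 39 whose untreated arrays all lay above all sham arrays, at 1.08 ± 0.32 (adjusted p = 0.0161). Over all genes, 11.7% lay above sham without overlap. Mad2l1 read -2.83, -2.06, -3.04 and -3.24 in sham arrays 1 to 4 and -2.41, -1.95, -1.87 and -1.53 in untreated arrays. Mad2l1, a spindle checkpoint protein, rose by 0.85 ± 0.27 (adjusted p = 0.0249), with sham replicate 2 above the lowest untreated array. Cdk1 read 0.23, 1.65, 1.04 and 1.16 in sham arrays 1 to 4 and 1.37, 1.43, 1.67 and 2.21 in untreated arrays. Cdk1, the mitotic kinase, stood at 0.65 ± 0.32 (adjusted p = 0.131). Ccnb1 read -1.22, -0.44, -0.80 and -1.06 in sham arrays 1 to 4 and -0.85, -0.43, -0.02 and 0.15 in untreated arrays. Its partner Ccnb1, cyclin B1, stood at 0.59 ± 0.33 (adjusted p = 0.184), and in both genes the groups overlapped. The remaining positive changes lay between 0.11 (Ccnb2) and 0.59 (Ube2c).

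Of the mitosis genes, 6 had a negative change, and 0 of them passed. Kif11 read -1.62, -1.34, -1.52 and -1.45 in sham arrays 1 to 4 and -2.46, -1.76, -2.32 and -1.42 in untreated arrays. Kif11, the motor that pushes spindle poles apart, stood at -0.50 ± 0.25 (adjusted p = 0.126), the lowest of the 39, and the untreated arrays were the more spread. Nusap1 read -0.74, -0.40, -0.37 and -0.15 in sham arrays 1 to 4 and -1.0, -0.68, -0.96 and -0.64 in untreated arrays. Nusap1, a spindle microtubule protein, stood at -0.41 ± 0.24 (adjusted p = 0.209). Top2a read -2.38, -1.21, -2.09 and -2.06 in sham arrays 1 to 4 and -2.13, -1.63, -2.42 and -1.82 in untreated arrays. Top2a, the topoisomerase that untangles replicated chromosomes, did not differ between the groups beyond their spread (-0.07 ± 0.34, adjusted p = 0.908). Bub1b, Cenpf and Kif2c stood at -0.39, -0.35 and -0.07. Cdc20, the activator of the anaphase-promoting complex, had positive and negative arrays in both groups. Cdc20 read -0.22, 0.27, -0.07 and -0.20 in sham arrays 1 to 4 and -0.48, 0.19, 0.26 and 0.50 in untreated arrays. Its change was 0.17 ± 0.24 (adjusted p = 0.627).

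**Figure D2:**
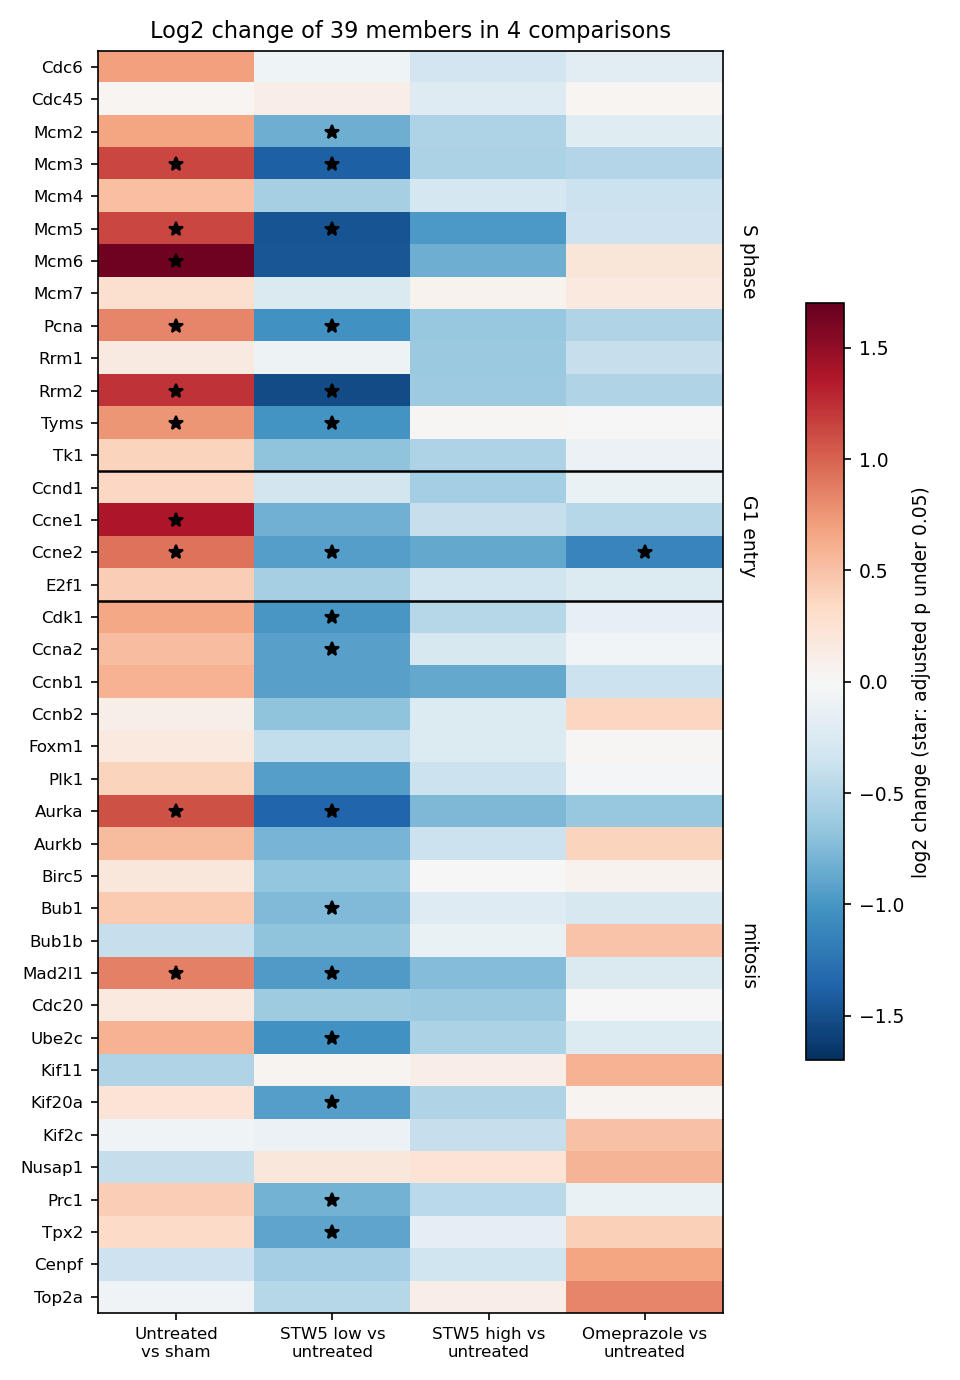
Log2 change of each of the 39 genes (rows, grouped as S phase, G1 entry and mitosis) in 4 comparisons (columns); red is higher and blue lower in the first-named group, and a star marks an adjusted p under 0.05. The 10 stars of untreated against sham lie mostly in the upper blocks, the 16 of low dose against untreated in all blocks, the high dose has 0, and omeprazole has 1 (Ccne2).

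How many genes rose depended on single arrays. Without sham replicate 2, 12 of the 39 rose, but without sham replicate 1, 3 or 4 the counts were 2, 3 and 4, and without untreated replicate 4 the genes past the test were Ccne1 and Aurka, which rose, and Kif11, which fell. With only these groups in the fit, 2 genes passed (Ccne1 and Aurka), and with array weights 17 did. Markers of other cell types moved in the same comparison. Of 10 measured leukocyte markers 9 were higher in untreated tissue, with a median change of 3.06, and the level of that list ran from -1.95 to 0.11 in sham and from 1.30 to 2.82 in untreated arrays. The highest of those sham arrays was replicate 2. Of the listed leukocyte markers Cd79b was well above background on 1 array. Of 7 basal keratinocyte markers 3 were lower, and of 6 suprabasal markers 4 were lower, while 1 of 5 fibroblast and 2 of 4 endothelial markers were higher. Among all genes 15.0% were higher and 17.9% lower. Of the muscle markers 3 of 5 skeletal and 2 of 4 smooth muscle genes were lower, with medians of -0.95 and -0.97. The part of these cell types in the result was not tested.

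Low-dose STW5 against untreated oesophagitis asks whether treatment changed these genes, here within slide 2. Of the 39 genes, 16 were lower at the low dose and 0 higher. Over all genes, 15.9% were lower and 21.7% higher. By role, 6 of 13 S phase, 1 of 4 G1 and 9 of 22 mitosis genes fell. The median change was -0.83 for S phase and -0.77 for mitosis genes, against 0.17 for all genes. Leaving out 1 sample gave -1.12 to -0.61 for S phase and -1.08 to -0.40 for mitosis, the last without low-dose replicate 3. With the near-identical pair averaged, all low-dose values lay below all untreated arrays in 13 of the 39 genes, a pattern that 15.3% of all genes showed. Array by array this held in 11.

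Tyms, Aurka, Rrm2 and Pcna had the smallest p. Rrm2 read 1.98, 1.89, 0.75 and 1.46 in low-dose arrays, every value below the lowest untreated array. Its change was -1.52 ± 0.40 (n = 3 and 4, adjusted p = 0.00683), the largest fall of the 39, and its other probe stood at -1.90. Tyms read -4.20, -4.34, -4.44 and -4.74, with no overlap, and fell by 1.02 ± 0.26 (adjusted p = 0.00565). Pcna read 0.85, 0.93, -0.34 and 0.40, also with no overlap, and fell by 1.04 ± 0.29 (adjusted p = 0.0105). Rrm1 read -3.73, -4.02, -3.99 and -4.16 and did not differ from untreated arrays beyond their spread (-0.09 ± 0.24, adjusted p = 0.793).

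In the helicase, Mcm2, Mcm3 and Mcm5 fell. Mcm5 read -2.79, -2.74, -3.61 and -4.36 at the low dose, all below the untreated arrays, and fell by 1.46 ± 0.42 (adjusted p = 0.0114). Mcm3 fell by 1.39 ± 0.43 (adjusted p = 0.0179), with no overlap. Mcm2 read -0.55, -0.58, -1.77 and -1.64, overlapped with the untreated arrays and fell by 0.83 ± 0.31 (adjusted p = 0.0462). Mcm6 read -5.02, -4.82, -5.26 and -6.00, a change of -1.45 ± 0.58 that did not pass (adjusted p = 0.0580), with 2 of 4 low-dose arrays well above background. Mcm4 and Mcm7 stood at -0.56 and -0.24, Tk1 at -0.68, Cdc6 at -0.07 and Cdc45 at 0.12, none of them past the test.

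Of the G1 genes only Ccne2 passed. Ccne1 read -0.84, -0.77, -0.96 and -2.14 at the low dose, where the mean of the near-identical pair lay within the untreated range and replicates 3 and 4 below it, and stood at -0.82 ± 0.40 (adjusted p = 0.114). Ccne2 read -6.11, -6.06, -6.73 and -7.32, 0 of 4 arrays well above background, and was at least 1.56-fold lower. Its adjusted p of 0.0324 belongs to the change of -0.93 in the signals as read. With signals raised to the background level Ccne2 stood at -0.64 and the call was lost (adjusted p = 0.0851), which left 15 genes. Ccnd1 read 0.15, 0.16, -0.28 and -0.44 and overlapped with the untreated arrays (-0.31 ± 0.21, adjusted p = 0.239). E2f1 stood at -0.57 (adjusted p = 0.0630).

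Of the mitosis genes that fell, Aurka had the largest change. Aurka read -1.31, -1.12, -2.39 and -1.47 at the low dose, with no overlap, and fell by 1.35 ± 0.34 (adjusted p = 0.00594). Mad2l1 read -2.68, -2.51, -3.06 and -3.05 and fell by 0.96 ± 0.30 (adjusted p = 0.0179), also with no overlap. Cdk1 read 1.22, 1.31, -0.16 and 0.95, where replicate 3 was far below the others, and fell by 0.99 ± 0.35 (adjusted p = 0.0343). The other 6 that fell were Ccna2, cyclin A2 (-0.93), the checkpoint kinase Bub1 (-0.76) and Ube2c, the ubiquitin-conjugating enzyme of the anaphase-promoting complex (-1.03). They also included the cytokinesis genes Kif20a (-0.94) and Prc1 (-0.80) and the spindle assembly factor Tpx2 (-0.89).

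Some well-known mitosis genes did not pass. Ccnb1 read -0.90, -0.73, -1.97 and -0.86 at the low dose and stood at -0.92 ± 0.36 (adjusted p = 0.0509), just short of the threshold. Top2a read -1.54, -1.5, -3.44 and -2.47, from above all untreated arrays to below them, and stood at -0.48 ± 0.37 (adjusted p = 0.320). Cdc20 read -0.41, -0.26, -0.90 and -0.24 (-0.61 ± 0.26, adjusted p = 0.0745). Kif11 read -1.45, -1.35, -2.41 and -2.04 and Nusap1 -0.21, -0.18, -1.42 and -0.26, and their changes of 0.04 and 0.20 were the only positive ones among mitosis genes. Ccnb2 and Aurkb lay below untreated tissue without overlap only with the near-identical pair averaged, at -0.68 and -0.79, but did not pass (adjusted p = 0.0619 and 0.0673). Plk1, Birc5, Bub1b, Foxm1, Cenpf and Kif2c stood between -0.93 (Plk1) and -0.10 (Kif2c).

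**Figure D3:**
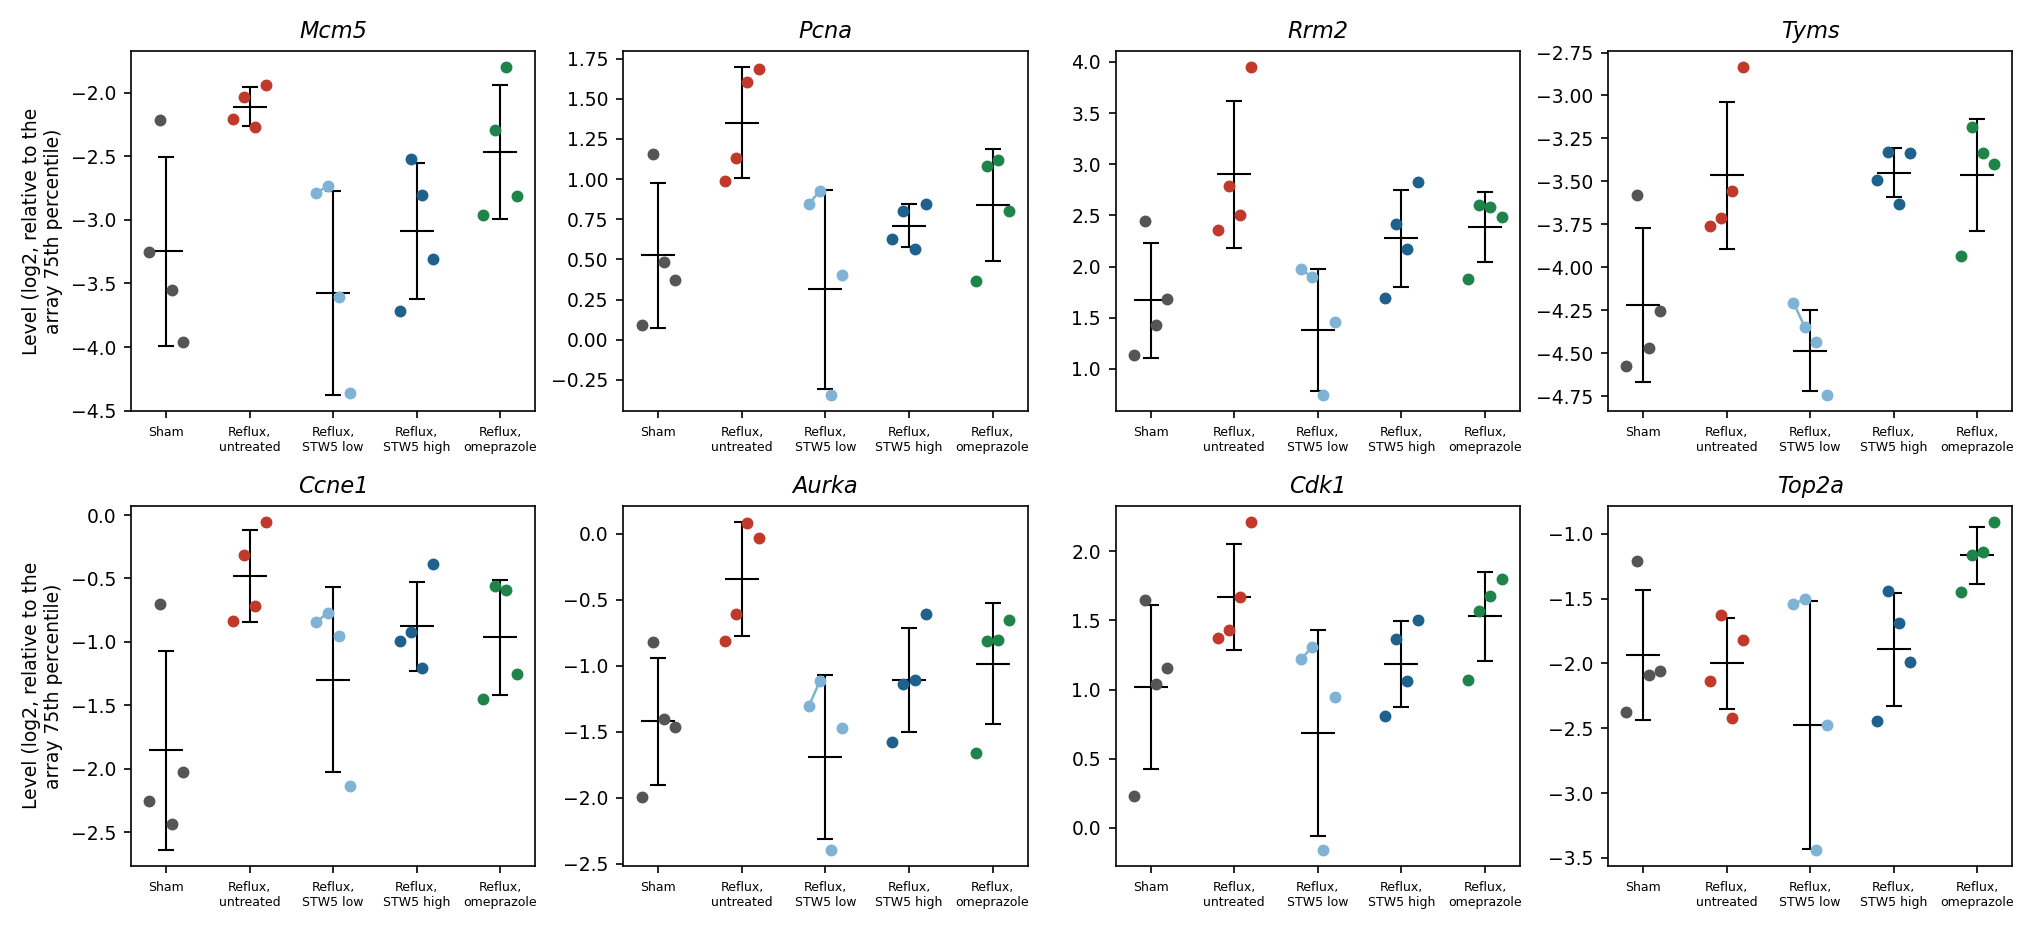
Level of 8 genes on each array (log2, relative to the array's 75th percentile), by group, each gene on its own axis, which does not start at 0. Points are arrays, the line joins low-dose replicates 1 and 2, and bars are the mean ± SD (n = 4, low dose n = 3). In Rrm2, Tyms and Aurka the low-dose points lie below all untreated points, and in Top2a the omeprazole points lie above all untreated points.

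The low-dose count also rested on single arrays and on the dose assignment. It was 4 without low-dose replicate 3 (Mcm5, Rrm2, Tyms and Aurka), 6 without untreated replicate 4, and 21 without the near-identical pair, which left 2 low-dose arrays. With only the slide 2 groups in the fit 6 genes passed (Mcm5, Mcm6, Rrm2, Tyms, Aurka and Mad2l1), and under the value table, which holds the other dose in these columns, 1 did (Ccnd1). Scaling by the probes above background on all arrays gave 24 and moved the median of all genes from 0.17 to 0.04. Leukocyte markers moved here as well: 9 of 10 were lower, with a median of -3.58 and a level from -2.13 to -0.76 in low-dose arrays. All 6 suprabasal and 3 of 7 basal keratinocyte markers were higher, and 4 of 5 fibroblast and 3 of 4 endothelial markers lower. Among all genes 21.7% were higher and 15.9% lower. Of the muscle markers 3 of 5 skeletal and 1 of 4 smooth muscle genes were higher, with medians of 0.93 and 0.45. Their part in the result was not tested.

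High-dose STW5 against untreated compares arrays of slides 3 and 2. By limma's test 0 of the 39 genes passed in either direction, against 4.37% of all genes lower and 5.13% higher, and 9 had an unadjusted p under 0.05, against 28.0% of all genes. The median change was -0.52 for S phase and -0.35 for mitosis genes, against -0.01 for all genes. Without untreated replicate 4 these were -0.27 and -0.21, and without high-dose replicate 1 the mitosis median was -0.16. In 6 genes all high-dose arrays lay below all untreated arrays (Mcm5, Pcna, Rrm1, Ccnd1, Kif20a and Prc1), where 7.97% of all genes did. Ccnd1 read -0.79, -0.21, -0.30 and -0.50 at the high dose, all below untreated (-0.58 ± 0.19, adjusted p = 0.0633). Rrm1 read -5.11, -4.50, -4.36 and -4.25, its lowest group (-0.64 ± 0.22, adjusted p = 0.0754). Pcna read 0.63, 0.80, 0.56 and 0.84, an even group just below the untreated range (-0.64 ± 0.27, adjusted p = 0.130).

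In the other genes followed array by array the high-dose values mostly overlapped with untreated tissue. Ccne2 read -6.76, -6.19, -6.93 and -6.69, with 1 of 4 arrays well above background (-0.87 ± 0.30, adjusted p = 0.0754), and Ccne1 -0.99, -0.92, -1.21 and -0.38 (-0.39). Mad2l1 read -3.17, -2.37, -2.77 and -2.39 (-0.74 ± 0.27, adjusted p = 0.0936). Cdc20 read -0.85, -0.45, -0.60 and -0.16 and Ccnb1 -1.74, -0.94, -1.16 and -0.79, both with means below untreated (-0.63 and -0.86, adjusted p = 0.102 and 0.102). Cdk1 read 0.81, 1.37, 1.06 and 1.5 (-0.49) and Aurka -1.57, -1.13, -1.11 and -0.61 (-0.76), both overlapping with untreated arrays. The helicase genes were uneven: Mcm2 read -1.16, -0.91, -1.11 and -0.89 (-0.52), Mcm5 -3.72, -2.52, -2.81 and -3.31 (-0.98) and Mcm6 -6.10, -3.75, -4.31 and -4.95 (-0.83). Rrm2 read 1.7, 2.41, 2.17 and 2.83 (-0.62, adjusted p = 0.279). Tyms read -3.49, -3.33, -3.63 and -3.33, within the untreated range (0.02 ± 0.24, adjusted p = 0.973). Top2a, Kif11 and Nusap1 had positive changes of 0.11, 0.12 and 0.23. Their arrays read -2.45, -1.44, -1.69 and -1.99 for Top2a, -2.10, -1.69, -2.02 and -1.68 for Kif11 and -0.80, -0.44, -0.74 and -0.39 for Nusap1.

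Under the value table's assignment of doses 9 genes were lower at the high dose (Mcm3, Mcm5, Pcna, Rrm2, Tyms, Ccne2, Aurka, Mad2l1 and Kif20a), and array weights gave 3. Of the leukocyte markers 2 of 10 were lower, with a median of -1.36 and a level from 0.04 to 1.19, and 0 of 7 basal and 0 of 6 suprabasal keratinocyte markers passed. Among all genes 5.13% were higher and 4.37% lower. Of the muscle markers 1 of 5 skeletal genes was higher, with a median of 0.36, and 0 of 4 smooth muscle genes passed. Their part was not tested.

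Omeprazole against untreated also compares arrays of slides 3 and 2. Of the 39 genes, 1 was lower than in untreated tissue (Ccne2) and 0 higher, against 12.2% and 15.6% of all genes. The median change was -0.21 for S phase genes and 0.03 for mitosis genes, against 0.10 for all genes, and the mitosis median fell below 0 under 3 other scalings (-0.03, -0.06 and -0.07). The S phase median was -0.09 without omeprazole replicate 1, -0.10 without untreated replicate 4 and -0.35 without untreated replicate 3. The mitosis median ran from -0.11 without untreated replicate 1 to 0.23 without omeprazole replicate 1. Ccne2 read -6.81, -7.06, -6.86 and -6.86, all below the untreated arrays, as in 12.6% of all genes. With 0 of 4 arrays well above background, it was at least 2.12-fold lower. Its adjusted p of 0.0115 belongs to the change of -1.12 in the signals as read. Without Ccne2, which passed the filter on dim probes mostly through untreated arrays, 0 of 38 genes passed. Ccne1 read -1.45, -0.56, -0.59 and -1.25 and Ccnd1 0.14, -0.29, 0.19 and 0.01, both overlapping with untreated tissue (-0.48 and -0.12).

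In 3 mitosis genes, Top2a, Nusap1 and Cenpf, all omeprazole arrays lay above all untreated arrays, where 15.5% of all genes did. Top2a read -1.45, -1.17, -1.14 and -0.91, and its change of 0.83 ± 0.34 did not pass (adjusted p = 0.0792). Nusap1 read -0.45, -0.34, -0.43 and 0.24, with replicate 4 far above the other 3 (0.58 ± 0.24, adjusted p = 0.0834). Cenpf, a kinetochore protein, stood at 0.67 ± 0.38 (adjusted p = 0.195). Kif11 read -1.81, -1.28, -1.5 and -1.0 and overlapped with untreated replicate 4 (0.59 ± 0.25, adjusted p = 0.0828). Bub1b, Kif2c, Tpx2, Aurkb and Ccnb2 stood between 0.36 and 0.50. With only the untreated and omeprazole groups in the fit, Top2a and Cenpf passed as higher. Aurka stood on the other side, at -1.66, -0.81, -0.80 and -0.65 (-0.64 ± 0.32, adjusted p = 0.145), with replicate 1 far below. Mad2l1, Cdk1, Ccnb1 and Cdc20 stood at -0.24, -0.14, -0.36 and -0.01, and all overlapped with untreated tissue. Their arrays read -2.75, -2.09, -1.79 and -2.10 for Mad2l1 and 1.07, 1.57, 1.68 and 1.80 for Cdk1. Ccnb1 read -1.51, -0.59, -0.28 and -0.22 and Cdc20 -0.46, 0.15, 0.24 and 0.49, each lowest in replicate 1.

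Of the S phase genes 0 of 13 passed with omeprazole by limma's test, and 9 of 13 changes were negative, against 5893 of all 13596 genes. Pcna read 0.36, 1.08, 1.12 and 0.80 (-0.51 ± 0.27, adjusted p = 0.168) and Rrm2 1.87, 2.61, 2.58 and 2.48 (-0.51). Mcm5 read -2.96, -2.29, -1.80 and -2.81 and Mcm2 -1.14, -0.44, -0.45 and -0.80 (-0.35 and -0.21). Mcm6 read -4.01, -3.81, -2.90 and -4.21 (0.21), its replicate 3 above all untreated arrays. Tyms read -3.93, -3.18, -3.34 and -3.40 and Rrm1 -4.43, -4.29, -4.45 and -4.09, overlapping with untreated arrays in both. In the same comparison 9 of 10 leukocyte markers were lower, with a median of -2.72 and a level from -1.14 to 0.07 in omeprazole arrays, and 3 of 7 basal and 5 of 6 suprabasal keratinocyte markers were higher. Among all genes 15.6% were higher and 12.2% lower. Of the muscle markers 2 of 5 skeletal and 2 of 4 smooth muscle genes were higher, with medians of 0.67 and 0.68. Their part was not tested.

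Set against sham, 0 of the 39 genes passed in any treated group. The background was 6.05% of all genes higher and 2.49% lower for the high dose, 1.55% and 0.0147% for omeprazole, and 0.00736% and 0% for the low dose. At an unadjusted p under 0.05 there were 3 genes for the high dose, 7 for omeprazole and 3 for the low dose, against 26.8%, 10.9% and 7.97% of all genes. The values side by side, which share the sham arrays, were a median mitosis change of -0.42 at the low dose, -0.02 at the high dose and 0.34 with omeprazole, and a median S phase change of -0.16, 0.21 and 0.45. At the low dose the S phase median turned to 0.17 with array weights, 0.10 under the value table and 0.03 with all 20 arrays as samples. At the high dose it was 0.72 with array weights and -0.15 under the value table, and with omeprazole 0.85 and 0.26. In the low dose 22 of 22 mitosis changes were negative, against 5563 of all 13596 genes. With omeprazole 22 of 22 were positive, against 6967 of all genes. Within groups the arrays differed together over these genes, so the signs are not separate observations. These medians and counts of signs were not recomputed without sham replicate 2, the highest sham array in 36 of the 39 genes. By the array values, Mad2l1 and Kif2c would then not be negative at the low dose, so the 22 there rest on that array. For the low dose, quantile scaling and the other percentile gave 22 negative, normexp 21, array weights 19, and 15 were negative in the value table. For omeprazole, quantile scaling gave 20 positive, normexp 21, the other percentile 22, and 17 were positive in the value table. Without sham replicate 2, 2 genes passed for the high dose (Tyms and Ccne1) and 3 for omeprazole (Mcm6, Tyms and Ccne1). With array weights, which gave sham replicate 3 a weight of 8.93 and the other sham arrays 0.39 to 0.62, omeprazole had 16 genes past the test, the high dose 15 and the low dose 3. The shares of all genes above belong to the fit with all samples and no weights, so these counts cannot be set against them.

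Treatments differed from each other in few of these genes. Tyms was higher at the high than at the low dose (1.04 ± 0.26, n = 4 and 3, adjusted p = 0.0109), the only 1 of 39, against 10.7% of all genes higher and 13.2% lower. All its high-dose arrays lay above all its low-dose arrays, as in 15.2% of all genes, and under the value table, where the doses change places, the change was -0.91. Low dose against omeprazole had 2 lower genes, Tpx2 (-1.29 ± 0.32, adjusted p = 0.0454) and Tyms (-1.02 ± 0.26, adjusted p = 0.0456), against 1.79% of all genes lower and 0.618% higher. These p-values were close to the threshold, and both calls were lost under quantile scaling and without low-dose replicate 3 or 4 or omeprazole replicate 2, 3 or 4. Without the near-identical pair 4 genes passed (Aurkb, Tpx2, Cenpf and Top2a). High dose against omeprazole, within slide 3, had 0, against 0.0294% of all genes lower and 0.191% higher. There 7 of the 39, 6 of them mitosis genes, had an unadjusted p under 0.05, against 17.9% of all genes. Of the mitosis changes 21 of 22 were negative, against 7786 of all 13596 genes, with the largest in Cenpf (-1.01, adjusted p = 0.205). Across all 5 groups 9 of the 39 differed by the moderated F test, against 38.6% of all genes: Tyms, Rrm2, Mcm5, Mcm6, Ccne2, Aurka, Aurkb, Mad2l1 and Tpx2. Setting aside Ccne2, which passed the filter on dim probes mostly through untreated arrays, leaves 4 of 13 S phase and 4 of 22 mitosis genes. The count over the 39 was 1 without low-dose replicate 3 and 16 without the near-identical pair, and 3 without sham replicate 3 or untreated replicate 2 or 4.

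Other genes of the same pathways were listed by role, with earlier results of these data known. Of 34 other replication genes measured, 10 were higher in untreated than in sham tissue and 0 lower, against 15.0% and 17.9% of all genes. They were led by Dbf4, the activator of the CDC7 kinase at origins (1.04 ± 0.21, adjusted p = 0.00185), the checkpoint kinase Chek1 (1.19 ± 0.32) and the chromatin assembly factor Chaf1b (1.22 ± 0.37). At the low dose 10 of 34 were lower than untreated and 0 higher, against 15.9% and 21.7% of all genes, led by Dbf4 (-0.80), the clamp loader subunit Rfc2 (-0.70) and the flap nuclease Fen1 (-0.93). Dbf4 was also lower at the high dose (-0.91 ± 0.21, adjusted p = 0.0149) and with omeprazole (-0.87 ± 0.21, adjusted p = 0.00647), where Rpa1, a single-strand binding protein, was higher (0.53 ± 0.17). Rpa2 and Rfc5 at the high dose (-0.49 and -0.69) and Orc6 with omeprazole (-0.60) did not pass.

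Of 31 other mitosis genes measured, 0 passed in untreated against sham by limma's test, against 15.0% of all genes higher and 17.9% lower. Pttg1, securin, stood at 0.75 ± 0.33 (adjusted p = 0.0903), the phosphatase Cdc25b at -0.35 and the checkpoint kinase Ttk at 0.59. At the low dose 6 of 31 were lower than untreated and 0 higher, against 15.9% and 21.7% of all genes, among them the kinetochore gene Nuf2 (-1.0 ± 0.28, adjusted p = 0.00997), Pttg1 (-1.24) and Ttk (-1.15). Smc4, a condensin subunit, was higher than untreated at the high dose (0.94 ± 0.20, adjusted p = 0.0100) and with omeprazole (1.07 ± 0.20, adjusted p = 0.00145), the only 1 of 31 in each, against 5.13% and 15.6% of all genes higher. Cenpa and Incenp at the high dose stood at -0.93 and -0.65, and Kif15 and Ska1 with omeprazole at 0.78 and 0.51, none past the test.

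Of 10 G1 activators measured, 3 were higher in untreated than in sham tissue, against 15.0% of all genes: Ccnd3, cyclin D3 (1.11 ± 0.19, adjusted p = 0.000577), its kinase Cdk4 (0.62 ± 0.19, adjusted p = 0.0195) and E2f3 (0.48 ± 0.17, adjusted p = 0.0365). At the low dose Ccnd3, Cdk4 and E2f3 were lower than untreated, at -1.23, -0.68 and -0.47, against 15.9% of all genes lower. Ccnd3 was lower with omeprazole too (-0.77 ± 0.19, adjusted p = 0.00694), the only 1 of 10, against 12.2% of all genes lower. Myc and Ccnd2 stood at -0.52 and 0.44 there. At the high dose 0 of 10 passed, against 4.37% of all genes lower and 5.13% higher, with Cdk4, Cdk6 and Cks1b at -0.58, -0.56 and -0.29.

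Inhibitors of the cycle went in both directions. Of 16 measured, 2 were lower and 2 higher in untreated than in sham tissue, against 17.9% and 15.0% of all genes. Cdkn2c, the CDK4 and CDK6 inhibitor p18, fell by 1.18 ± 0.33 (adjusted p = 0.0123) and Cdkn1b, p27, by 0.52 ± 0.18 (adjusted p = 0.0383), while Cdkn2d, p19, rose by 0.85 ± 0.26 (adjusted p = 0.0198) and Cdkn2a by 0.84 ± 0.31. At the low dose Cdkn2c, Cdkn1b and Ccng2 were higher than untreated, at 1.40 ± 0.36, 0.77 ± 0.20 and 0.94 ± 0.28 (adjusted p = 0.00607, 0.00662 and 0.0166), and Cdkn2d was lower (-0.90), against 21.7% of all genes higher and 15.9% lower. At the high dose Cdkn2d alone passed (-0.86 ± 0.26, adjusted p = 0.0476), against 4.37% of all genes lower, with the stress gene Gadd45a at -1.22. With omeprazole Cdkn2d was lower (-1.09 ± 0.26, adjusted p = 0.00613) and Cdkn2c and Rb1 were higher (1.02 and 0.62), against 12.2% and 15.6% of all genes.

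Where a gene had several probes, they mostly gave the same direction. Of 11 such genes of the 39, the probes had the same sign in 10 for untreated against sham, 11 at the low dose, 9 at the high dose and 8 with omeprazole, each against untreated. The median gap between probes of a gene ran from 0.17 to 0.31, and the largest gap was 1.09, in E2f1, in untreated against sham.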

How the data were processed

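The deposited scanner files hold 1-colour (Cy3) intensity for 20 arrays of 100 ng RNA each, made by the authors with Agilent Feature Extraction 10.7.3.1, per the file headers, with background subtracted and no scaling between arrays. The authors' deposited value table holds the ratio of each array's signal to that array's median (column medians 1), as the values show; the step that made it is not given in the sources used here, and it served as an alternative. The 58717 features were averaged to 30367 probes, of which 17958 were named by accession, 2664 by symbol and 555 by synonym through RefSeq's annotation, 1925 only by the file's own name, 51 as listed genes and 7214 not at all.

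Signals were log2 transformed and the array's 75th percentile subtracted. Probes well above background on at least 4 arrays were kept, with the brightest probe per gene. All 5 groups entered 1 limma 3.58.1 fit (R 4.3.3) over 13596 genes and 19 samples, with Benjamini-Hochberg adjustment and a threshold of 0.05, giving 10 comparisons and a moderated F. The script was tested on simulated data.

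Array-by-array values are given for a set list of well-known genes and for the genes of smallest p in each comparison against untreated or sham, and the other pathway genes named are the 3 of smallest p per list, less 1 gene that is not reported here. The members and lists were chosen with earlier results of these data known. Alternatives were other scalings, filters, probe rules, array weights, a replicate block, fewer groups and leaving out each sample. Those for the F were added after seeing the data. Replicate numbers did not pair the samples: arrays of different groups with the same number correlated between -0.32 and 0.58, and 6 of 20 correlated best with their own number.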

Additional observations from a re-analysis of the deposited data

Results flagged for a closer look

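Of 176 sets of 4 arrays (a gene or list level in a group), 12 held an array far from the other 3 by Dixon's criterion, which chance gives in about 1 of 20 sets. The low dose, with n = 3, was not examined this way. Omeprazole replicate 1 was the low array in Plk1 (-0.065), Aurka (-1.66), Bub1 (-1.55), Ube2c (-0.85) and the level of all 39 genes (-0.13, the next array at 0.37). Omeprazole replicate 4 was the high array in Tk1 (0.97) and Nusap1 (0.24), and the low array in S phase level minus mitosis level (-0.52, the next at -0.03). Untreated replicate 4 was the high array in Mcm7 (1.56) and Kif2c (-3.86), untreated replicate 3 the low array in Mcm6 (-4.93, the next at -3.72), and high-dose replicate 1 the low array in Prc1 (-1.45).

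Treated groups differed from each other, by limma's test of the difference itself, in Tyms between high and low dose (1.04), in Tyms between low dose and omeprazole (-1.02) and in Tpx2 between low dose and omeprazole (-1.29).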

How the results depend on the processing

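Without each sample in turn, the number of genes called ranged from 2 to 12 for untreated against sham, from 4 to 21 for low dose against untreated, from 0 to 1 for high dose and from 1 to 2 for omeprazole against untreated. It ranged from 0 to 2 for high dose and from 0 to 3 for omeprazole against sham, from 0 to 4 for low dose against omeprazole, and from 1 to 16 for the F test. With array weights the counts were 17 for untreated against sham, 3 for high dose against untreated, 16 for omeprazole, 15 for high dose and 3 for low dose against sham, 5 between doses, 4 for high dose and 11 for low dose against omeprazole. With only the compared groups they were 2 for untreated against sham, 6 for low dose and 3 for omeprazole against untreated, 1 for high dose and 0 for low dose against omeprazole. Under the deposited value table, whose STW5 columns hold the other dose, they were 1 for low dose and 9 for high dose against untreated, 2 between doses and 0 for low dose against omeprazole, and Tyms turned to -0.92 (high dose against untreated), -0.91 (between doses) and 0.093 (low dose against omeprazole). Quantile scaling gave 1 and normexp 2 for high dose against untreated, and both gave 0 for low dose against omeprazole, as did no filter on dim probes. The percentile over bright probes gave 24 for low dose against untreated and 1 for high dose against sham. Only probes above background everywhere gave 0 for omeprazole against untreated, a set that leaves out Ccne2. All 20 arrays as samples gave 1 for high dose against sham and 2 between doses. With the replicate block the counts against untreated were 18 (low dose), 1 (high dose) and 3 (omeprazole), and 1 for high dose against sham and 5 for low dose against omeprazole. A slide block could not be fitted, since each group lies on 1 slide. Shares of all genes given above belong to the main fit and not to these alternatives. The causes were not tested. The numbers of arrays, and signals near background in Ccne2 and Mcm6, limit the precision.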
